A study of Mus musculus with 12 samples.

Results

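Far intergenic regions are stretches of accessible chromatin that lie in no gene and a long way from any gene start. Peaks of all 12 ATAC-seq libraries of the series were merged where they shared at least 1 bp, and a region was kept when its centre lay on chromosomes 1 to 19, inside no annotated gene of any type and more than 50 kb from every annotated transcription start site (TSS; GRCm38, GENCODE vM21). The rule uses position only and left 22147 of the 263562 merged regions. The libraries were made from primary cortical neurons of C57BL/6 mouse embryos at embryonic day 18. PBS cultures received vehicle, PFF cultures received pre-formed fibrils of alpha-synuclein that seed its aggregation, and both were kept for 7 days. PFF+MLi-2 cultures received the fibrils and, for the last 5 days, MLi-2, which blocks the kinase activity of LRRK2. PFF+Rab5 ASO cultures received the fibrils and, for the last 3 days, antisense oligonucleotides against Rab5, a small GTPase of early endosomes. Each group had 3 biological replicates, all labelled as batch 1.

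ATAC-seq marks DNA that the transposase Tn5 can reach. Open chromatin far from genes is mostly made of enhancers, which act on promoters over long distances by DNA looping, and of sites bound by CTCF, a zinc finger protein that anchors loops and insulates neighbouring domains. Enhancers are open where sequence-specific factors bind them. In cortical neurons these include AP-1, the FOS and JUN dimer that neuronal activity and stress induce, basic helix-loop-helix factors such as the NEUROD and NEUROG families, which bind E-boxes, MEF2 factors, POU factors and homeodomain factors. Genes of neuronal development, cell adhesion and synapses often stand beside wide gene deserts.

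The sequences below were read from GRCm38 on the plus strand and centred on the strongest summit of each region. They are of members picked for their height or change and need not be typical. AP-1 sites are commoner in the first group than among all members that fell (22.1%) or were lost (26.3%). That group leaves out the tallest lost member, near Tbl1xr1. It holds members whose peaks ranked lower, or were lost, in PFF+Rab5 ASO libraries. The next group holds members whose peaks ranked higher, or were gained, in those libraries; it starts with the 2 largest rises, and the 2 after them were picked later for their TAATTA motif. The last group holds the tallest members and a tall member with a CTCF core. Each name gives the nearest protein-coding gene. Capitals mark matches to the motifs described later in the text.

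Hand2 desert, chr8:57013936-57014056, lower: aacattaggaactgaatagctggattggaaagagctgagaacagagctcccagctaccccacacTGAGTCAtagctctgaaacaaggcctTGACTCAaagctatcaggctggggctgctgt
Rragc desert, chr4:123990752-123990872, lower: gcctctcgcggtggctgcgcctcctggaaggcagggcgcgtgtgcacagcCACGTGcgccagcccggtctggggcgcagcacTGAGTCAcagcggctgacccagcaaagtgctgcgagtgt
Ctnnd2 desert, chr15:31120261-31120381, lower: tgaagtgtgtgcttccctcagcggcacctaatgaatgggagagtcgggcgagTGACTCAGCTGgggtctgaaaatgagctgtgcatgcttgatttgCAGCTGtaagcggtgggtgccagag
Tenm4 desert, chr7:95853573-95853693, lost: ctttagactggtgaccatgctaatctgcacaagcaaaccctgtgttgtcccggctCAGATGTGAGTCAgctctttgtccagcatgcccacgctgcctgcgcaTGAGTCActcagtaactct
Neurod6 desert, chr6:55629406-55629526, lost: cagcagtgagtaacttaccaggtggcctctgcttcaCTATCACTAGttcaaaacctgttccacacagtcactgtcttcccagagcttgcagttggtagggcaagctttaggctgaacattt

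Lcorl desert, chr5:46331000-46331120, higher: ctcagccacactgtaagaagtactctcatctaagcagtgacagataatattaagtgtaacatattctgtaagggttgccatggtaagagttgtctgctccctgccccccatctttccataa
B230118H07Rik desert, chr2:101371880-101372000, higher: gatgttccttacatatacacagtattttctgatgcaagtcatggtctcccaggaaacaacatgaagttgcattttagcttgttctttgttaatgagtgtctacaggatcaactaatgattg
Nnt desert, chr13:119062981-119063101, higher: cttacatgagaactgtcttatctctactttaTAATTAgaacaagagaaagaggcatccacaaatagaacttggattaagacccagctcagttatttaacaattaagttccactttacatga
Cenpc1 desert, chr5:85536199-85536319, higher: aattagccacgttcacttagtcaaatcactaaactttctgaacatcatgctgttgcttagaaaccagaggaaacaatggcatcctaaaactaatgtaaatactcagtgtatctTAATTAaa
Msl3l2 desert, chr10:56007280-56007400, gained: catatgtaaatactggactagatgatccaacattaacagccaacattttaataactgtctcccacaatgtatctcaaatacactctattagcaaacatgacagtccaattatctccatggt
Vrk2 desert, chr11:26976127-26976247, gained: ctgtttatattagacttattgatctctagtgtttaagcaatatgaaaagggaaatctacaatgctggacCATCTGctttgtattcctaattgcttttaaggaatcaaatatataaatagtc

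Ddx18 desert, chr1:122357154-122357274, tallest: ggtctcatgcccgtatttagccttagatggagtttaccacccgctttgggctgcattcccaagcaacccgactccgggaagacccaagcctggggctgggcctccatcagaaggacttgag
Gtf2e1 desert, chr16:37487329-37487449, next tallest: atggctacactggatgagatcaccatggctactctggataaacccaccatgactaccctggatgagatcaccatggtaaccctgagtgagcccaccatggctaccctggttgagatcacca
Ercc4 desert, chr16:13025572-13025692, CTCF core: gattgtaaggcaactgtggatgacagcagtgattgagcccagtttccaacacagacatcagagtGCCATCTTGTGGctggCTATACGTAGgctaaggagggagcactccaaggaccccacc

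The depth of the libraries was derived from the background values of the peak caller and scaled to a mean of 1. It was 1.22 ± 0.149 in PFF+Rab5 ASO against 0.775 to 1.03 in the other 9 libraries. The fragment length read from the narrowest peak was 53 to 59 bp against 62 to 66 bp. PFF had the lowest mean depth, at 0.843 ± 0.0728, and the longest mean fragment, at 65 bp. The lists held 137299 to 184564 peaks per library. The median far intergenic peak rested on 14 or 15 fragments at its summit in each library, which limits the precision of a single peak. Promoters of all 8 neuronal marker genes carried a peak in all 12 libraries, as did those of all 8 excitatory, astrocyte and progenitor genes and of 7 of 8 interneuron genes. This held for 0 of 8 microglial genes, with Cx3cr1, Aif1, C1qb and Itgam in no library, and for 2 of 6 endothelial genes, with Pecam1, Tek and Cdh5 in none. The median height percentile of the progenitor promoters was 66.8 to 73.9 in PFF+MLi-2, 74.4 to 79.5 in PFF and 75.4 to 78.2 in PBS. That of the excitatory promoters was 53.4 to 58.3 in PFF, 59.2 to 71.8 in PBS and 58.5 to 70.9 in PFF+MLi-2. The part of these shifts in the results was not tested. In bulk libraries, fewer cells with an open region and less opening per cell cannot be told apart.

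Far intergenic regions were sparse, narrow and AT-rich. They made up 8.56% of the 258721 autosomal regions, whereas the sequence that qualifies as far intergenic covers 371 Mb, or 15.5% of the autosomes without gaps. There were 59.7 regions per Mb of this sequence and 108 per Mb of the autosomes as a whole. Of the 3580 separate stretches of far intergenic sequence, 788 held no region. Density was lowest on chromosome 14, with 49.0 regions per Mb, and highest on chromosome 7, with 81.7. In distance, 13936 members lay 50 to 100 kb from the nearest TSS, 6443 lay 100 to 200 kb, 1748 lay 200 to 500 kb and 20 lay farther, up to 628 kb. The median distance was 84.3 kb to any TSS and 208 kb to the TSS of a protein-coding gene. The nearest TSS belonged to a processed pseudogene for 6646 members, to a lincRNA for 5229 and to a protein-coding gene for 4639. Just inside the threshold, a region on chromosome 16 at 50001 bp from a TSS had a peak in 3 libraries, and just outside it a region on chromosome 10 at 50000 bp had a peak in 11.

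Membership across libraries was uneven. A peak in all 12 libraries was found for 4564 members, or 20.6% (95% Wilson interval 20.1 to 21.1%), and 6512 members, or 29.4%, had a peak in a single library. Near intergenic regions, those 1 to 50 kb from a TSS and outside genes, had a peak in all 12 libraries in 25.8% of cases, intronic regions in 23.2% and promoters, within 1 kb of a TSS, in 46.4%. Among the members, the share fell with distance from 21.5% at 50 to 100 kb to 17.7% at 200 to 500 kb. The median GC content within 100 bp of the summit fell over the same bands from 44.8% to 41.8%. The median width of a member was 138 bp, the widest spanned 1347 bp, and 22.6% had no CpG in the summit window against 3.92% of promoters. Soft-masked repeats covered on average 10.1% of a member, close to the 11.3% of near intergenic and 10.0% of intronic regions.

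Compared inside each library, far intergenic peaks differed from both other classes in composition more than in height. Their median GC content was 44.7% ± 0.861 (SD, n = 12 libraries) against 48.3% ± 0.520 for near intergenic peaks, lower in 12 of 12 libraries by 3.52 percentage points (exact sign-flip permutation test, two-sided, p = 0.000488, the smallest that 12 libraries can give; adjusted p = 0.000651 over 12 differences). The CTCF core, the letters CCANN followed directly by AGNNGGC, was found within 100 bp of the summit of 3.26% ± 0.307 of far and 7.25% ± 0.437 of near intergenic peaks, and the difference of 3.99 points had the same sign in every library and the same exact p. Against intronic peaks, at 5.38% ± 0.269, the CTCF core was rarer by 2.12 points with the same adjusted exact p = 0.000651. The AP-1 site TGANTCA moved the other way, at 12.2% ± 1.22 of far intergenic peaks and 1.12 points above near intergenic peaks (adjusted exact p = 0.000651). The median width was 116 bp ± 7.61 for far intergenic, 125 bp ± 8.19 for near intergenic and 120 bp ± 7.59 for intronic peaks, and far intergenic peaks were the narrowest in 12 of 12 libraries (adjusted exact p = 0.000651 for both). Their height differed little, with many tied medians. The median percentile of fold enrichment within a library was 49.5 ± 1.39, which was 1.10 below near intergenic peaks, lower in 6 libraries, tied in 5 and higher in 1 (adjusted exact p = 0.0341), and 1.65 above intronic peaks, higher in 7 libraries and tied in 5 (adjusted exact p = 0.0188). The first of these missed an exact p of 0.05 without PBS replicate 1, PFF replicate 1, PFF+MLi-2 replicate 2 or 3, or PFF+Rab5 ASO replicate 1 or 2, with differences of -1.05 to -0.923. The libraries share most of their tall regions, and these tests measure only the spread between libraries.

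Merged regions gave the same picture. All motifs were searched on both strands. The CTCF core was found in 2.43% of members (2.23 to 2.64%), 5.48% of near intergenic regions and 4.45% of all autosomal regions of the same window length, and among regions open in all 12 libraries in 5.21% of members and 7.95% of all. The homeodomain core TAATTA was found in 11.7% of members (11.2 to 12.1%) against 8.53% of near intergenic, 8.39% of intronic and 7.69% of all regions. The POU octamer ATGCAAAT was found in 2.62% against 1.76% of all regions. The E-box CAGATG, preferred by NEUROD and NEUROG factors, was found in 25.5% of members against 22.2% of all regions, and the E-box CAGCTG in 16.2% against 16.9% of near intergenic and 17.8% of intronic regions. The MEF2 site, CTA and TAG 4 bases apart, was found in 4.55% against 4.04%. The CRE TGACGTCA, at 0.154% against 0.404%, and the E-box CACGTG, at 2.33% against 3.53%, were rarer in members than among all regions, and both were commonest at promoters with 1.28% and 5.54%. The NFI palindrome, TTGGC and GCCAA 5 bases apart, was found in 20 members. Motif windows overlap between motifs, since AP-1 and E-box letters can share bases as in the Ctnnd2 sequence above.

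The tallest members were close to the top of every library. The region chr1:122357157-122357276, 152 kb from the lincRNA gene Gm28590 and 789 kb from Ddx18, ranked at percentile 99.5 of fold enrichment or higher in all 12 libraries. The other 4 of the 5 tallest were chr16:37487230-37487572 near Gtf2e1, chr16:39302905-39303402 near Igsf11, chr16:27523577-27524241 near Ccdc50 and chr4:81178771-81179122 near Mpdz. They also had a GC content of 51.2 to 63.2%, above the 43.8% median of the members. In the Gtf2e1 region the most frequent run of 8 letters occurred 6 times in the summit window, which the tandem units in the printed sequence show, whereas the median member had each run once. The widest members lay near Irf2bp2, with 1347 bp, near Kcnc2, the gene of the Kv3.2 potassium channel, with 1298 bp, and near Cdh20, with 1199 bp. The tall CTCF core member of the Ercc4 desert, chosen after its values were seen, ranked between percentiles 97.4 and 99.5 in the 12 libraries.

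The members farthest from any TSS that were open in all 12 libraries varied in height. The farthest, chr1:114543949-114544418, lay 580 kb from the nearest TSS, that of the lincRNA gene 9330185C12Rik, and 1141 kb from Cntnap5a, a contactin-associated adhesion gene. Its fold enrichment over local background was 6.25, 4.42 and 4.32 in PBS and 4.76, 4.24 and 4.39 in PFF. It was 5.20, 5.05 and 5.17 with MLi-2 added and 5.78, 6.04 and 6.93 with the Rab5 ASO. The PFF+Rab5 ASO libraries were above the PFF and PFF+MLi-2 libraries here and overlapped with PBS. The others lay 558 kb from Gm12004, 478 kb from Gm22223 in the desert of the cadherin gene Cdh11, 463 kb from Gm20693 and 454 kb from Gm37604 in the desert of the potassium channel gene Kcnt2. Their percentiles ran from 29.9 to 92.3 over the libraries.

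The stretches of far intergenic sequence with most members open in all 12 libraries are given here by the protein-coding genes on either side. The stretch between Cdh26 and Cdh4, a cadherin of the developing retina and brain, held 92 members in 461 kb, of which 22 were open in all 12 libraries. The stretch between Sall1 and Tox3 held 70 members with 21 open in all libraries, and that between Auts2 and Castor2 held 66 with 20. Next came Nmur2 to Gria1, the gene of an AMPA receptor subunit, with 63 and 17, Rragc to 3100002H09Rik with 40 and 17, Insc to Sox6 with 35 and 17 and Gadd45g to Diras2 with 47 and 16. Gm6569 to Adgrb1 (77 members), Eef2kmt to Rbfox1, a neuronal splicing factor (76), and Pard3 to Nrp1, a semaphorin receptor (72), each had 15. Gains and losses in these 10 stretches between PFF+Rab5 ASO and PFF numbered 0 to 5 and 0 to 2 per stretch. No more than 5 of the 948 gained members described below thus lay in any one of them.

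By nearest protein-coding gene, 644 members belonged to 26 of 38 synaptic adhesion genes, 553 to 32 of 54 cortical transcription factors, 507 to 20 of 23 cadherins and protocadherins, 470 to 23 of 30 axon guidance genes and 396 to 28 of 45 channels and receptors. Genes of activity and neurotrophic response had 70. Among the marker lists used for promoters above, the 8 microglial genes had 0 and the 6 endothelial genes 41, all nearest to Cdh5. The 8 progenitor genes had 48, the excitatory ones 28, the astrocyte ones 26, the neuronal ones 19 and the interneuron ones 15. No test was made between lists. The genes with most members were Tenm4, a teneurin, with 82 members of which 15 were open in all libraries, Cdh11 with 64 and 10, Gria1 with 63 and 17, Adgrl2, a latrophilin, with 60 and 10, Epha4, an ephrin receptor, with 59 and 7, Tenm2 with 55 and 4, and Efna5, an ephrin, with 52 and 9. Among transcription factors, Tshz3 had 47 and 6, the layer marker Tle4 had 45 and 10, Sox11 had 34 and 3, and Bcl11a had 33 and 6. Pou3f3 had 17 members and Cntnap4 18, none of them open in all 12 libraries. By contrast 8 of 15 members nearest to Dlx2, a regulator of interneuron fate, 10 of 23 nearest to Sox2 and 9 of 25 nearest to Myt1l were open in all. Bdnf, the activity-induced neurotrophin, had 10 with 2. The nearest gene is a label of position, and nothing here shows which gene a member acts on.

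The number and share of far intergenic peaks were highest with the Rab5 ASO. PBS libraries had 14049, 9518 and 10757 far intergenic peaks, PFF libraries 12365, 11613 and 10078, PFF+MLi-2 libraries 10294, 10722 and 9727, and PFF+Rab5 ASO libraries 14978, 13977 and 12701. The first PBS library reached the range of the Rab5 ASO libraries, and the test of the numbers across the 4 groups missed the threshold (exact permutation test, one-sided, p = 0.0820). As a share of all peaks of the library, far intergenic peaks were 7.26% ± 0.447 in PBS (SD, n = 3), 6.93% ± 0.273 in PFF, 7.00% ± 0.284 with MLi-2 added and 8.09% ± 0.262 with the Rab5 ASO. These shares did differ between the groups (exact permutation test, one-sided, p = 0.0169). The Rab5 ASO libraries, at 7.81 to 8.33%, lay above each of the other 9, the nearest being PBS replicate 1 at 7.77%.

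**Figure D1:**
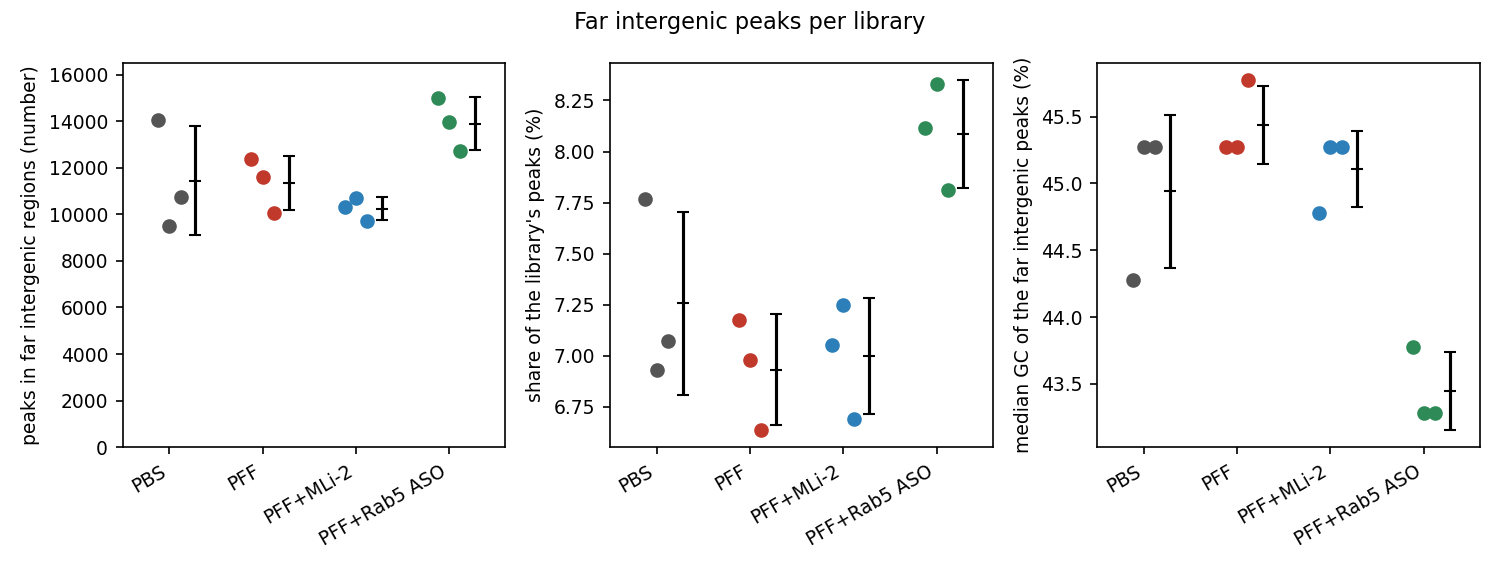
Number of far intergenic peaks, their share of all peaks and their median GC content in each library (points) of the 4 groups, with the mean and SD of 3 libraries beside them; the axes of the share and the GC content do not start at 0. The 3 PFF+Rab5 ASO libraries have shares of 7.81 to 8.33% and median GC contents of 43.3 to 43.8%, with no overlap with the other libraries in either.

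In the pairwise exact permutation tests the share gave p = 0.1, the smallest that 3 and 3 libraries allow, for PFF+Rab5 ASO vs PFF and vs PBS (adjusted p = 0.25 over 5 pairs), and p = 0.5 to 0.7 for the other 3 pairs. The rise was larger than that of near intergenic peaks. There were 30.8 ± 0.735 far intergenic peaks per 100 near intergenic peaks in PFF+Rab5 ASO, against 28.5 ± 1.26 in PBS, 27.3 ± 0.823 in PFF and 27.7 ± 0.875 with MLi-2 added (exact one-sided permutation test, p = 0.0129; a measure chosen after seeing the data). The composition of the peaks moved with it. The median GC content of far intergenic peaks was 43.4% ± 0.287 in PFF+Rab5 ASO and 45.4% ± 0.287 in PFF, and that of near intergenic peaks 47.6% ± 0.287 and 48.6% ± 0.287. When, after seeing the data, the share was counted inside 5 bands of GC content with the same weights in every library, it was 7.38 to 7.65% in PFF+Rab5 ASO, 7.06 to 7.21% in PFF and 7.31 to 7.40% in PBS, and the groups still differed (exact permutation test, one-sided, p = 0.0402). PFF+MLi-2 replicate 2, at 7.52%, and PBS replicate 1, at 7.40%, then lay inside the range of the Rab5 ASO libraries. Depth and fragment length also separate the Rab5 ASO libraries from the rest, and their part in the share cannot be told apart from the treatment.

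PFF against PBS asks which regions open or close when the fibrils are added. Gained members carried a peak in each of the 3 PFF libraries and in no PBS library, and lost members the other way round; the same rule served the other comparisons. Of 16949 members with a peak in either group, 166 were gained (0.979%; 95% Wilson interval 0.842 to 1.14%) and 100 were lost (0.590%; 0.485 to 0.717%), beside 1.10% gained and 0.404% lost over all 216815 regions. The gained members stood at the 33.6th percentile of height at the median, low in their libraries. Their median GC content was 46.3%, and that of the lost members was 42.3%. TAATTA was found in 12 of the 166 gained and 18 of the 100 lost members, and AP-1 in 30 and 11. The 95% intervals overlapped for both motifs. The balance rested on single PBS libraries: it was 216 gained to 386 lost without PBS replicate 2, 242 to 253 without PBS replicate 3, and 452 members were gained without PBS replicate 1. With equal numbers of top peaks from every library it was 153 to 125.

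The 3 tallest gained members were chr8:101803059-101803320 in the Cdh11 desert, chr10:17387368-17387589 in the desert of Cited2 and chr1:40174233-40174421, 50.7 kb from Il1r1, the interleukin 1 receptor. The Il1r1 member had a peak in the 3 PFF libraries only, at percentiles 69.1, 56.6 and 58.0, and holds an AP-1 site. The Cdh11 member also had a peak in 2 PFF+Rab5 ASO libraries and 1 PFF+MLi-2 library. The tallest lost member, chr12:68683255-68683540, lay 82.4 kb from the ribosomal RNA gene n-R5s61. It ranked at percentiles 78.8, 71.0 and 49.8 in PBS, had no peak in any PFF library, and ranked at 89.4, 84.6 and 78.0 with MLi-2 added. Of the PFF+Rab5 ASO libraries 2 had a peak there, at 60.7 and 28.3. The next 2 lost members lay 83.1 kb from Gm21362 and 67.4 kb from Gm6462. Read in the libraries that did not enter this comparison, 35 of the 166 gained members were seen in 2 or 3 PFF+MLi-2 libraries and 63 in 2 or 3 PFF+Rab5 ASO libraries, and for the 100 lost members these numbers were 42 and 55. These are descriptions with no test, since the members were picked for a peak or its absence in PFF. The same shares over all gained and lost regions are not given here. The PFF+Rab5 ASO lists were also longer, with a mean of 171644 peaks against 146384 in PFF+MLi-2.

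PFF+MLi-2 against PFF asks what the LRRK2 inhibitor changes in fibril-treated neurons. Of 15474 members with a peak in either group, 76 were gained (0.491%; 0.393 to 0.614%) and 223 were lost (1.44%; 1.26 to 1.64%), beside 0.374% and 1.64% over all regions. The PFF+MLi-2 libraries held 145384 to 147867 peaks, fewer than the 151801 to 172262 in PFF. With equal numbers of top peaks from every library the members divided into 137 gained and 138 lost. The gained members had a median GC content of 42.8% and the lost ones 45.3%. The n-R5s61 member described above was the tallest gained member, followed by chr15:65549186-65549360 in the desert of Efr3a and chr2:61102171-61102317 in the desert of Rbms1, an RNA-binding protein gene. All 3 also had a peak in at least 2 PBS libraries. The tallest lost member, chr2:171406134-171406411 in the desert of the synaptic organiser gene Cbln4, ranked at percentiles 61.3, 70.8 and 87.9 in PFF and had no peak in PFF+MLi-2. It too had a peak in 3 PBS libraries, at 69.2, 40.5 and 41.0. The other lost members lay in the deserts of Zfp770, where repeats covered 90.8% of the member, and of Slc30a10, a manganese transporter gene. Between PFF+MLi-2 and PBS, 46 of 15963 members were gained (0.288%) and 117 lost (0.733%), beside 0.226% and 0.577% over all regions, and without PBS replicate 1 these became 200 and 169.

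PFF+Rab5 ASO against PFF asks the same of the Rab5 ASO, and it gave the most changed members. Of 19143 members with a peak in either group, 948 were gained (4.95%; 4.65 to 5.27%) and 266 were lost (1.39%; 1.23 to 1.57%), beside 2.63% gained and 1.94% lost over all 230672 regions. Near intergenic regions had 3.06% gained and 1.88% lost, and intronic regions 2.67% and 2.34%. Gains therefore made up 78.1% of the changed members, 61.9% of the changed near intergenic regions and 53.3% of the changed intronic regions. With equal numbers of top peaks the counts were 729 gained and 317 lost members, or 69.7% gains, against 55.1% near intergenic and 47.2% intronic. Leaving out each library in turn kept gains at 66.1 to 82.9% of the changed members. By distance, 4.61% were gained at 50 to 100 kb, 5.45% at 100 to 200 kb and 5.88% at 200 to 500 kb, with overlapping intervals between neighbouring bands, and 0 of 17 beyond that. The gained members were not at the bottom of the lists, with a median height percentile of 48.0. Against PBS the counts were 773 gained and 169 lost of 19603 (3.94% and 0.862%, beside 2.59% and 0.992% over all regions); this comparison shares the PFF+Rab5 ASO libraries with the one against PFF. No test was made of these counts across classes. PFF+Rab5 ASO and PFF had the highest and lowest mean depth, at 1.22 and 0.843, and mean fragment lengths of 55.7 and 65 bp. The part of depth and fragment length in the gains and losses cannot be told apart from the treatment.

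**Figure D2:**
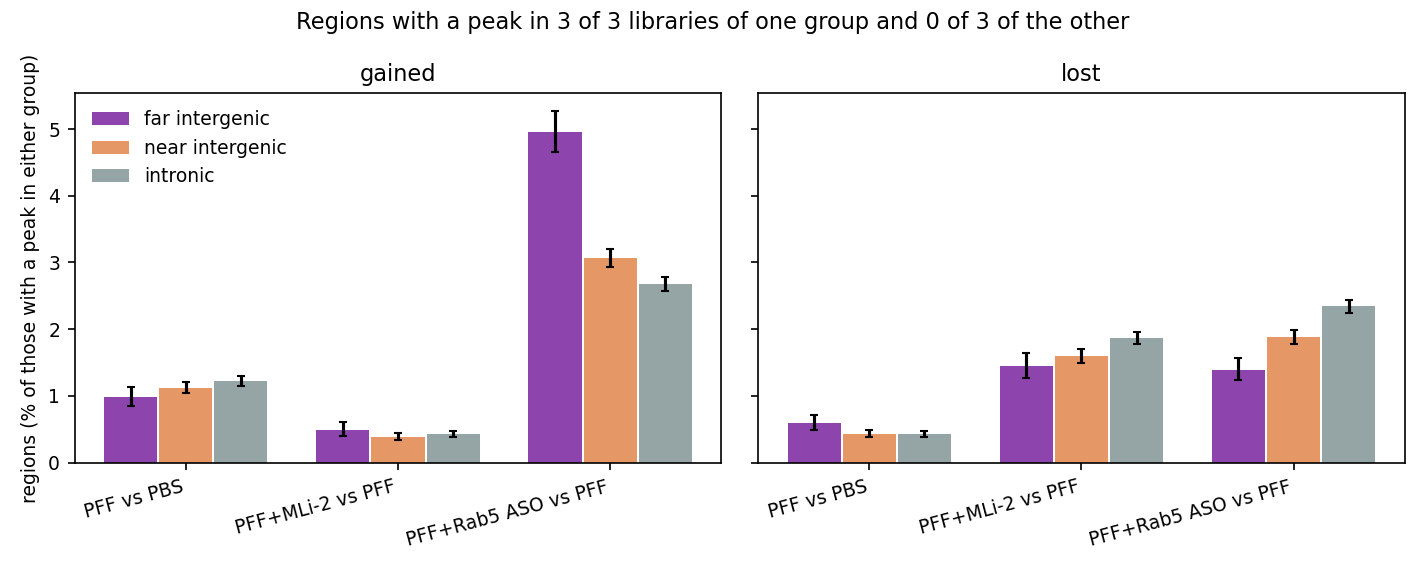
Share of regions gained (left) and lost (right) in 3 comparisons for far intergenic, near intergenic and intronic regions; bars are percentages of the regions with a peak in either group and lines are 95% Wilson intervals, which cover counting error only. The far intergenic bar for gains in PFF+Rab5 ASO vs PFF stands at 4.95%, against 3.06% and 2.67% for the other classes.

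The gained and the lost members differed in sequence. The median GC content was 38.3% in gained and 46.3% in lost members, against 43.8% in all members with a peak. TAATTA was found in 197 of 948 gained members (20.8%; 18.3 to 23.5%), in 7 of 266 lost members (2.63%; 1.28 to 5.33%) and in 12.1% of all with a peak. AP-1 was found in 9.81% of gained (8.08 to 11.9%), 26.3% of lost (21.4 to 31.9%) and 12.1% of all. The E-box CAGATG was found in 21.3% of gained and 32.3% of lost members, and CAGCTG in 10.5% and 20.3%. The MEF2 site, at 6.65% and 4.89%, and the POU octamer, at 3.59% and 1.88%, had overlapping intervals. The CTCF core was rare in both, at 0.422% and 1.13%, below the 2.60% of all members with a peak. Motif shares were not compared at equal GC content, and TAATTA holds no G or C. The motif differences therefore cannot be told apart from the difference in GC content.

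**Figure D3:**
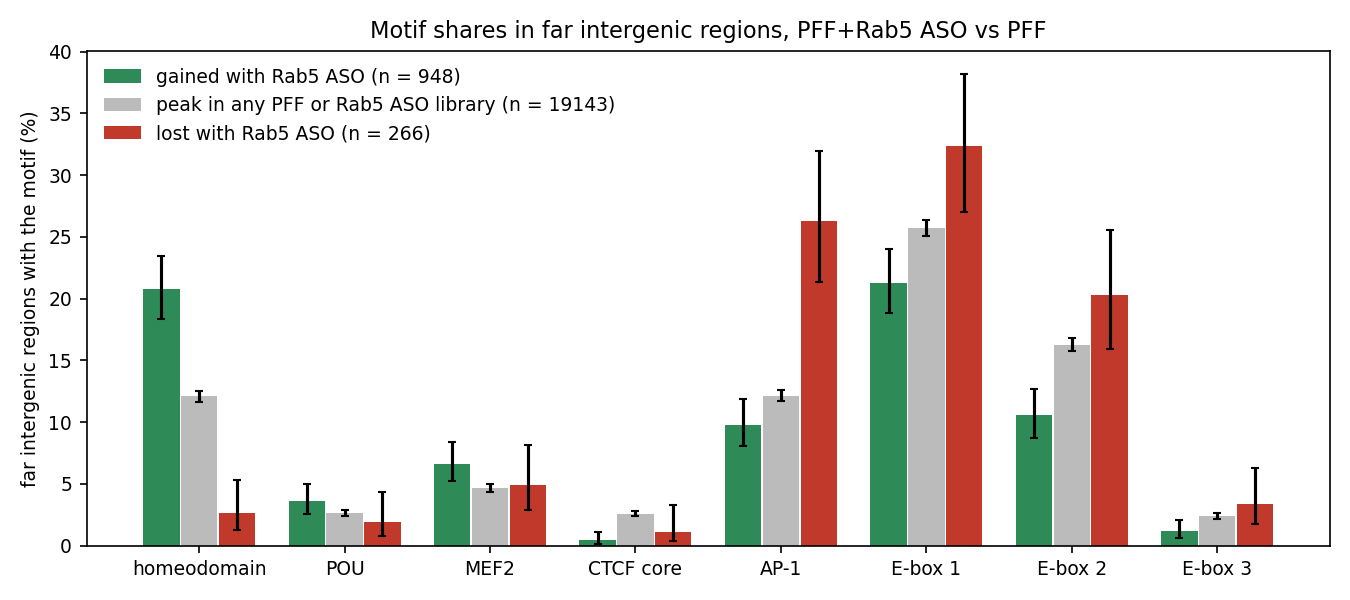
Share of far intergenic regions with each motif within 100 bp of the summit among those gained, lost or with a peak in either group for PFF+Rab5 ASO vs PFF, with 95% Wilson intervals; E-box 1 is CAGATG, E-box 2 CAGCTG and E-box 3 CACGTG. The homeodomain core stands at 20.8% in gained and 2.63% in lost members, and AP-1 at 9.81% and 26.3%.

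In bands of GC content, added after seeing the data, the direction of change followed GC content in members and in the other classes alike. At a GC content of up to 40%, 585 members were gained and 35 lost (10.3% and 0.617% of 5670). From 40 to 45% these were 247 and 70, from 45 to 50% 86 and 91, from 50 to 55% 24 and 49, and above that 6 and 21. Near intergenic regions of up to 40% GC had 8.79% gained and 0.817% lost, and intronic ones 8.01% and 0.884%. At 45 to 50% GC, 1.90% of members, 2.11% of near intergenic and 1.79% of intronic regions were gained. In the 40 to 45% band these were 4.87%, 3.42% and 3.49%, and at 50 to 55% they were 0.884%, 1.40% and 0.910%, with no test between the classes. In PFF vs PBS the lowest band had 33 gained and 38 lost members and the 45 to 50% band had 50 and 20, the opposite order.

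The 3 tallest gained members were each called in all 3 PFF+Rab5 ASO libraries and no PFF library. The Msl3l2 desert member, chr10:56007211-56007444, reached a fold enrichment of 10.9, 9.59 and 7.92, from 33, 26 and 23 fragments at the summit, and otherwise had a peak in PBS replicate 1 and PFF+MLi-2 replicate 1. The Hlx desert member, chr1:184500792-184500980, reached 8.35, 7.46 and 7.26 and also had a peak in 2 PBS libraries. The Vrk2 desert member, chr11:26975988-26976293, reached 7.71, 7.46 and 7.26 and had no peak in any other library. A missing peak is a value under the calling limit and not a measured 0, so no fold between groups is given.

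Of the 3 tallest lost members, the Tbl1xr1 desert member, chr3:21477400-21477662, was the plainest: it had a peak in all 9 libraries without the Rab5 ASO, with a fold enrichment of 7.13, 8.32 and 8.76 in PFF, and in none of the 3 with it. It holds an AP-1 site and 2 kinds of E-box in its summit window. The member chr6:55629151-55629612 lay 51.9 kb from Neurod6, a helix-loop-helix factor of excitatory cortical neurons. Its fold enrichment was 7.33, 8.48 and 6.39 in PFF. The 3 libraries with MLi-2 were lower, at 4.51, 5.77 and 5.17, and 1 PBS library had a peak. The Tenm4 desert member, chr7:95853565-95853742, reached 7.69, 8.48 and 5.99 in PFF and 4.78, 4.42 and 3.96 in PBS. Its printed sequence holds 2 AP-1 sites and an E-box that runs straight into the first of them.

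Height could be compared in the 4564 members with a peak in all 12 libraries. Fold enrichment was converted to normal scores of its rank inside a library over all 72408 such regions, which were then compared by limma, so that a difference is in standard deviations of the score. In PFF vs PBS 0 members and 0 regions passed an adjusted p of 0.05 (limma, Benjamini-Hochberg), with 320 members higher and 259 lower at an unadjusted p under 0.05, beside 3835 and 3198 of the 72408 regions. PFF+MLi-2 vs PFF also gave 0, with 316 and 318 unadjusted (4065 and 4214 of all regions), and 2 higher and 1 lower in a single limma fit over the 12 libraries, beside 36 and 20 of all regions. PFF+MLi-2 vs PBS gave 0, with 182 and 180 unadjusted (2047 and 2134 of all regions). An adjusted p above the threshold does not show that heights were alike.

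In PFF+Rab5 ASO vs PFF 175 members ranked higher (3.83%) and 104 lower (2.28%), beside 1.97% and 1.86% of all regions. Near intergenic regions had 2.36% higher and 2.23% lower, and intronic regions 2.25% and 2.49%. Ranks of the 2 groups did not overlap for 29.0% of members, against 25.9% of all regions. The members' median difference was 0.02, and that of all regions 0.01. Here too the part of depth and fragment length cannot be told apart from the treatment. The calls were fragile: without PFF+Rab5 ASO replicate 1 limma called 0 members (590 higher and 526 lower at an unadjusted p under 0.05, beside 6517 and 6975 of the 72408 regions). Without any other of the 6 libraries it called 18 to 81 members higher and 12 to 31 lower, beside 146 to 564 and 182 to 417 of all regions. Against PBS 90 members ranked higher and 41 lower, beside 1.00% and 0.627% of all regions, and leaving out any of the 6 libraries left at most 2 and 1. With a term for the replicate number limma called 0 against PBS (704 higher and 499 lower at an unadjusted p under 0.05, beside 7104 and 6687 of the 72408 regions) and 109 higher and 73 lower against PFF, beside 846 and 822 of all regions.

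The called members also differed in sequence. They are other regions than the gained and lost ones but come from the same libraries, so they are no separate test of the pattern. Their motif shares were not compared at equal GC content either. The median GC content was 41.8% in members that rose and 48.8% in those that fell, against 46.3% in all tested. TAATTA was found in 32 of 175 that rose (18.3%; 13.3 to 24.7%) and 2 of 104 that fell (1.92%; 0.529 to 6.74%), AP-1 in 9.14% and 22.1% (15.2 to 31.0%), and CAGATG in 24.6% and 42.3% (33.3 to 51.9%). CAGCTG, at 12.6% and 17.3%, and the POU octamer, at 3.43% and 3.85%, had overlapping intervals. The median difference of all 517 tested members with TAATTA was 0.24, and that of the 537 with AP-1 was -0.11, beside 0.17 and -0.14 for all regions with these motifs. By GC content, the median difference fell from 0.26 in the lowest decile to -0.23 in the seventh, where all regions had 0.23 and -0.09. In the ninth decile the 71 members were at -0.23 and all regions at 0.03. When ranks were taken inside deciles of GC content, a setting added after seeing the data, limma called 75 members higher and 71 lower, of which 129 were among the 279 calls above, and 627 higher and 614 lower of all 72408 regions. With a term for the replicate number added to this setting it called 0 (627 and 624 members at an unadjusted p under 0.05, beside 7021 and 7075 of all regions).

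**Figure D4:**
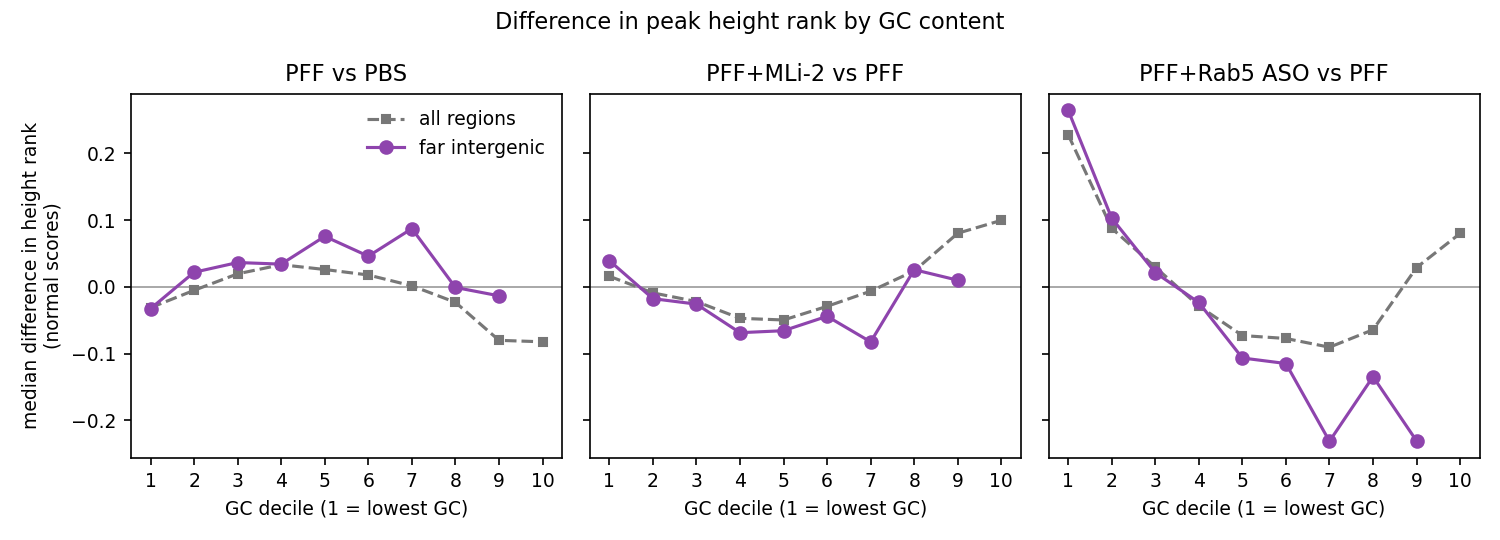
Median difference in height rank, in normal scores, by decile of GC content for the members open in all 12 libraries (circles) and for all such regions (squares) in 3 comparisons; deciles with fewer than 20 members are not drawn for the members. In PFF+Rab5 ASO vs PFF the members run from 0.26 in the lowest decile to -0.23 in the ninth, and in the other comparisons they stay within 0.1 of 0.

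The 5 members with the largest rises ranked at percentiles 79.8 to 99.6 of height in the PFF+Rab5 ASO libraries. The member chr5:46330957-46331191 in the desert of Lcorl had a fold enrichment of 5.86, 3.85 and 5.19 in PFF and of 9.96, 9.59 and 9.91 in PFF+Rab5 ASO. Its summit held 15, 9 and 12 fragments in PFF and 30, 26 and 29 with the ASO. The groups did not overlap, and the rank difference was 2.35 ± 0.331 (SE; limma adjusted p = 0.0153), although PBS replicate 1 stood at 9.19, just under the ASO libraries. The call was lost without PFF+Rab5 ASO replicate 1 or 3, and the other 4 rises without replicate 1. The member chr9:25959064-25959452 in the desert of Eepd1 went from 8.43, 8.86 and 7.19 to 13.5, 14.1 and 13.9 (1.95 ± 0.221; limma adjusted p = 0.0153), and the other 6 libraries lay between 6.13 and 9.31. The remaining 3 lay in the deserts of B230118H07Rik, of Cntn4, a contactin, and of Zfhx3, with differences of 2.16, 1.94 and 1.94. None of the 5 holds TAATTA in its summit window; the Lcorl, B230118H07Rik and Zfhx3 members hold none of the motifs searched, the Eepd1 member holds CAGATG and the Cntn4 member AP-1 and CAGATG. Among called members with TAATTA inside the printed sequence, chosen after their values were seen, the Nnt desert member went from 5.49, 5.40 and 4.79 to 8.35, 8.53 and 8.58 (1.72 ± 0.205; limma adjusted p = 0.0153), and the Cenpc1 desert member from 5.86, 5.01 and 4.79 to 7.39, 8.88 and 9.04. With 1 library left out at a time, the Nnt call was kept in 5 of 6 cases and the Cenpc1 call in 3 of 6. The summit window of the Cenpc1 member also holds an AP-1 site.

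The 5 members with the largest falls included 3 with AP-1 sites, whose sequences are given above. In the Hand2 desert, chr8:57013716-57014300 had a fold enrichment of 10.3, 9.57 and 10.1 in PBS and 8.43, 9.25 and 9.59 in PFF. It was 10.8, 9.74 and 10.7 with MLi-2 added and 5.78, 3.55 and 3.63 with the Rab5 ASO. All 9 libraries without the ASO were above the 3 with it. The rank difference was -2.16 ± 0.392 (SE; limma adjusted p = 0.0245), and the adjusted p was 0.0521 to 0.0770 when any library was left out. In the Rragc desert, chr4:123990711-123990927 went from 9.60, 10.3 and 9.19 in PFF to 4.47, 3.87 and 5.01 (-2.11 ± 0.283; limma adjusted p = 0.0153), with PBS between at 6.30, 7.00 and 6.76 and PFF+MLi-2 at 7.53, 5.70 and 5.15. In the Ctnnd2 desert, beside the gene of a neuronal catenin, chr15:31120215-31120500 went from 7.69, 10.8 and 7.59 to 4.82, 3.91 and 3.63 (-2.07 ± 0.318; limma adjusted p = 0.0171), with PBS at 6.25, 7.36 and 6.83 and PFF+MLi-2 at 5.90, 4.33 and 6.21. The other 2, in the deserts of Pou3f2, a POU factor of upper cortical layers, and of Il12b, fell by 1.98 and 1.90 in rank score. All 5 calls were lost without PFF+Rab5 ASO replicate 1, and the Ctnnd2 call also without replicate 3.

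**Figure D5:**
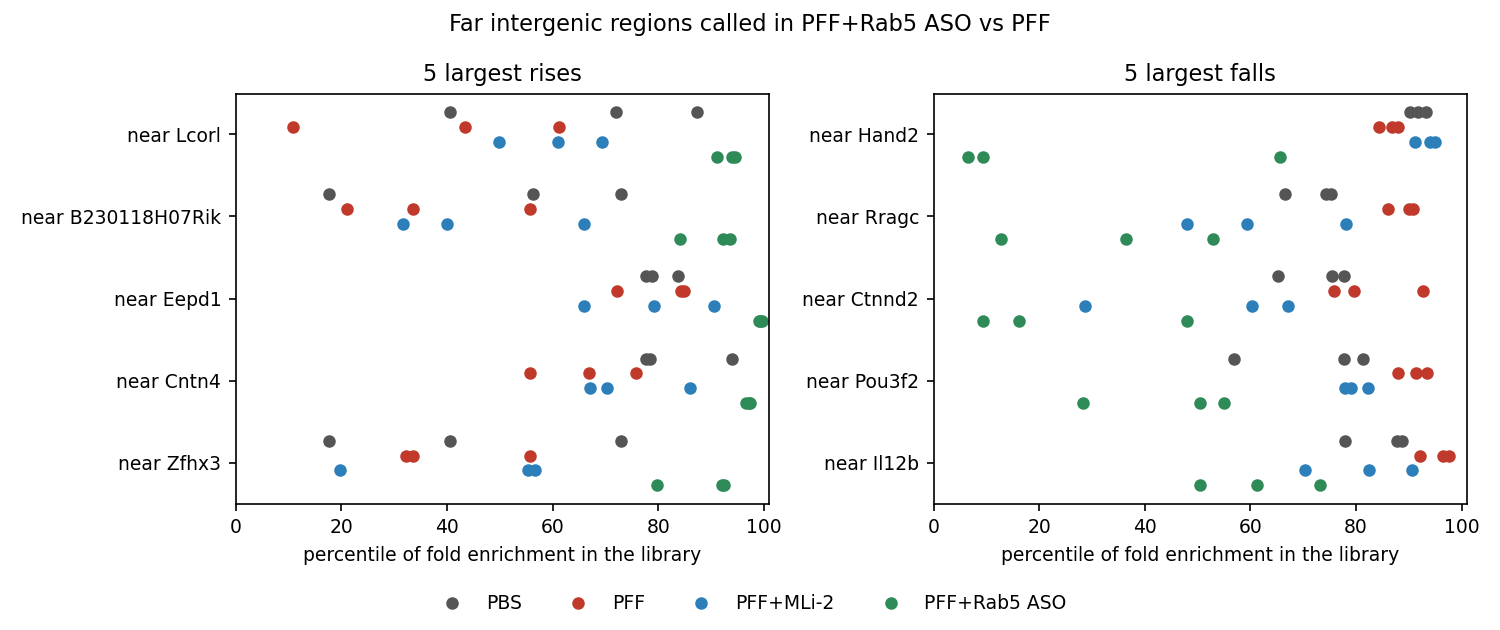
Percentile of fold enrichment within each library (1 point per library, 4 groups by colour) for the 5 far intergenic regions with the largest rises and the 5 with the largest falls among limma calls in PFF+Rab5 ASO vs PFF, named by the nearest protein-coding gene. Near Hand2 the PFF+Rab5 ASO points lie at 6.59 to 65.6 and the other 9 at 84.4 to 94.9; the regions were chosen on these values, so the plot describes them and tests nothing.

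Against PBS, the largest rise among called members was at chr10:14861277-14861669 in the desert of Nmbr, with percentiles of 65.2, 40.5 and 41.0 in PBS and 96.3, 97.6 and 96.0 in PFF+Rab5 ASO (2.40 ± 0.227; limma adjusted p = 0.0207, and 0.0739 with a term for the replicate number, which ends every call of this comparison). The other 6 libraries stood at 51.5 to 74.3, all below those with the ASO. The Eepd1 member was again among the 5, with members in the deserts of Nova1, a neuronal splicing factor, and Marcks and one 50.2 kb from Emp1 that holds a CTCF core. The largest fall was again the Hand2 member (-2.57 ± 0.388; limma adjusted p = 0.0273), followed by members in the deserts of Papss1, Gpd2 and Maf and one 73.1 kb from Hcrtr2. This comparison and the one against PFF share the 3 PFF+Rab5 ASO libraries.

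By nearest gene, the limma calls in PFF+Rab5 ASO vs PFF were spread thinly. Of the 92 members of synaptic adhesion genes that were tested, 8 rose and 1 fell, with a median difference of 0.08, beside 175 and 104 of all 4564 members tested. Of 85 at channels and receptors 7 rose and 4 fell (median 0.16), of 83 at axon guidance genes 6 rose and 2 fell (0.04), of 98 at cortical transcription factors 5 rose and 5 fell (0.02), and of 85 at cadherins and protocadherins 4 rose and 3 fell (0.05). None of the 13 at activity and neurotrophic genes passed, with a median of 0.24. Gains and losses by presence, which were 948 and 266 of all 22147 members, gave 54 and 2 of 644 members of synaptic adhesion genes, with 7 gained beside Adgrl2, 7 beside Cntnap5a and 6 beside Tenm2. Cadherins and protocadherins had 31 and 5, axon guidance genes 27 and 9, channels and receptors 23 and 1, and cortical transcription factors 20 and 7. Nothing particular to a list is read from these counts. In PFF vs PBS the same 5 lists had at most 6 gained and 6 lost members each.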

How the data were processed

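The authors called peaks in each library with MACS2 2.2.7.1 after trimming (Trim Galore 0.6.7) and alignment to GRCm38 (Bowtie2 2.5.1, default settings), per the study's methods and the submitters' processing notes; peak calling options, duplicate handling and the Tn5 shift are not given in the sources used here, and each would alter peak number, width and height. The deposited lists give per peak a score, a fold enrichment (a ratio to local background), a −log10 p-value and q-value and a summit; the deposited score was not used. Titles and treatment labels set the groups; free-text descriptions of the treated libraries name PBS instead of PFF.

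Merging, classes, motifs and permutation tests used Python 3.11.15 (pandas 2.3.3, scipy 1.17.1, pysam 0.24.0), and limma 3.58.1 (R 4.3.3) was run on the ranks with Benjamini-Hochberg adjustment over all regions. Of 1916151 peaks, 0.0752% lay outside chromosomes 1 to 19, X and Y and were left out. Depth was derived from the fold and −log10 p-value, which gave whole-number summit pileups for 100% of peaks. The limma step was tested on simulated data. Intervals cover counting error only.

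The members, gene lists and naming rules (tallest, farthest, widest, largest called differences, tallest gained and lost, fullest deserts, list genes nearest to at least 10 members; none on chromosome 18) were chosen with earlier results of these data known. Alternatives were another TSS set or distance, stricter or equal peak lists, coverage, left-out libraries, a replicate term, other height scales, GC bands and a 50 bp motif window. A result on 1 marker list is not reported here.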

Additional observations from a re-analysis of the deposited data

How the results depend on the processing

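The shares of far intergenic peaks and their ratio to near intergenic peaks kept their side of the threshold under all alternatives run. The test on the number of far intergenic peaks passed with equal numbers of top peaks (F = 22.4, exact permutation p = 0.00961; 3.37 as deposited) and gave F of 1.79 to 9.05 with a library left out, passing only without PBS replicate 1. The difference in height percentile from near intergenic peaks missed the threshold beyond 100 kb (-0.919) and at a −log10 q of at least 5 (-0.342), and ran from -1.32 to -0.923 with a library left out; the width difference from intronic peaks missed it at that q (-2.50 bp), and the difference from intronic peaks in the share open in all 12 libraries ran from -2.75 to -1.71 points and missed it without 9 of the 12. Members numbered 8211 beyond 100 kb. The share of members open in all libraries was 19.1% beyond 100 kb, 22.3% with equal peak numbers and 9.05% when a peak had to cover 50% of the region. The CTCF core share was 1.89% beyond 100 kb, 1.74% in a 50 bp window and 2.92% at the stricter q, AP-1 7.53% in that window, and TAATTA 12.3% beyond 100 kb and 5.70% in that window.

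Gained and lost shares moved with the rule for presence. When a peak in 2 of 3 libraries was enough, gained and lost members were 3.85% and 3.48% (PFF vs PBS), 2.37% and 5.65% (PFF+MLi-2 vs PFF), 11.3% and 4.41% (PFF+Rab5 ASO vs PFF), 1.57% and 4.26% (PFF+MLi-2 vs PBS), and 9.68% and 3.77% (PFF+Rab5 ASO vs PBS). With equal peak numbers, losses were 0.892% (PFF vs PBS) and 1.40% (PFF+Rab5 ASO vs PBS), and gains 0.995% (PFF+MLi-2 vs PFF) and 0.548% (PFF+MLi-2 vs PBS). At the stricter q, losses in PFF vs PBS were 0.357%, and with the coverage rule losses were 2.35% (PFF+MLi-2 vs PFF) and 2.28% (PFF+Rab5 ASO vs PFF). Leaving out a library, which makes the rule easier to meet, gave 1.30 to 3.03% gained and 0.828 to 2.32% lost (PFF vs PBS), 0.727 to 1.52% and 2.51 to 3.64% (PFF+MLi-2 vs PFF), 5.58 to 8.33% and 1.72 to 2.86% (PFF+Rab5 ASO vs PFF), 0.405 to 1.45% and 1.23 to 2.98% (PFF+MLi-2 vs PBS), and 4.37 to 7.75% and 1.08 to 2.56% (PFF+Rab5 ASO vs PBS).

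For height ranks in PFF+Rab5 ASO vs PFF, limma called 2.39% higher (109 members) and 73 lower with the replicate block and 1.64% higher inside GC deciles, and against PBS 0% in both directions with the block, 0.329% higher and 0.548% lower inside GC deciles, 1.75% lower in a single fit over 12 libraries, 3.83% higher and 2.52% lower on median-centred log2 fold and 0.574% lower beyond 100 kb. GC deciles with the replicate block gave 0% in both comparisons. The single fit gave 0.0438% higher and 0.0219% lower in PFF+MLi-2 vs PFF. With a library left out, PFF+Rab5 ASO vs PFF gave 0 to 1.77% higher and 0 to 0.679% lower, and against PBS 0 to 0.0438% and 0 to 0.0219%; the cause was not tested. Replicate numbers name no shared animal in the labels. The study's methods count a pregnancy as a replicate and divide its cultures among groups, without tying this to the numbers. The main tests did not take the numbers as pairs. Deviations of same-numbered libraries correlated at 0.00519 to 0.0790, against means of -0.0302 to -0.0105 for other numbers. In each comparison 5 or 6 of 6 libraries were closest to their own number. Low correlations over many regions do not show that libraries were unpaired, so results with the replicate block are given beside the unpaired ones. The block left the tests on the number and share of peaks on the same side of the threshold (p = 0.0538 and 0.0226, labels permuted inside a replicate number, exact). Labels do not say how cultures were paired, and 14 or 15 fragments at a typical summit limit every call of presence.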
